A study of Caenorhabditis elegans with 2 samples.

Results

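The REF-1 family of Caenorhabditis elegans is a group of 6 basic helix-loop-helix (bHLH) transcription factor genes, ref-1, hlh-25, hlh-26, hlh-27, hlh-28 and hlh-29. All 6 were taken by name from the 19973 protein-coding genes of the nuclear genome, and every deposited peak of HLH-26-eGFP chromatin immunoprecipitation within 5000 bp of any of them was collected, so that binding near the family's own genes could be described. One member, hlh-26, encodes the precipitated protein itself. No thresholded peak lay near any member, and in the list of both replicates 1.09% of all protein-coding genes had one. In that list, ranked peaks of lower score lay within 5000 bp of all 6, as of 90.8% of all protein-coding genes. ref-1 was the one member with such a peak in its promoter, where 19.3% of all genes had a ranked summit.

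REF-1 family proteins are worm relatives of the Hairy and Enhancer of split repressors, and each carries a pair of bHLH domains. In the embryo several of the genes are direct targets of Notch signalling: the Notch intracellular domain joins the DNA-binding protein LAG-1 on heptamers of the kind GTGGGAA and switches them on, and the proteins then repress genes that direct cell fate. ref-1, the founding member, is also known for its part in patterning the ventral epidermis, and hlh-29 for a part in ovulation.

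The samples form 1 group of 2 biological replicates, and no other condition was set against them. Each consisted of whole young adults of strain RW12174, collected at 66 hours after synchronisation as L1 larvae starved following bleaching. The strain carries st12174, a CRISPR insertion of GFP at hlh-26 together with an unc-119(+) marker flanked by loxP sites, in an unc-119(tm4063) III background. Sonicated chromatin was precipitated with an antibody to GFP, and as whole animals were used, the cell type behind a peak cannot be told apart. All animals of both replicates carried the tag, and a strain without it was not analysed here.

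The files are 8 peak lists. Replicate 1 has a ranked list of 19393 peaks and a thresholded list of 21, and replicate 2 has 24293 and 27. The ranked list of both replicates compared with each other holds 35301 peaks, and 90 of them form its thresholded list. Another ranked list of the series holds 35468 peaks and its thresholded list 75. The authors' signal value measures the height of enrichment, on a scale they do not state, and serves here to rank peaks within a list. Their score is a rescaled −log10 of the irreproducible discovery rate (IDR), which is low where a peak ranks both high and alike in the lists compared. The score is 540 at an IDR of 5.01%, has a ceiling of 1000, and is 832 or more in every thresholded list. How many reads lie behind a peak is unknown from such lists.

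The sequences below are those on which the description turns, read from the RefSeq genome of WBcel235, the assembly that the peak files call ce11. They were searched on both strands for 6 hexamers bound by bHLH proteins (the E-box CACGTG, the hexamers CATGTG, then CATGCG, the E-box CAGCTG, the hexamer CACGCG and the N-box CACNAG) and for 2 heptamers bound by LAG-1 (GTGGGAA and its variant ATGGGAA), and capitals mark each match. A match is a run of letters and was not tested as a binding site. The first is the strongest peak before ref-1 (chrII:10218001-10218300, plus strand), shown for the 4 LAG-1 heptamers beside its summit, with the hexamer CACCAG at the left.
ref-1 strongest peak: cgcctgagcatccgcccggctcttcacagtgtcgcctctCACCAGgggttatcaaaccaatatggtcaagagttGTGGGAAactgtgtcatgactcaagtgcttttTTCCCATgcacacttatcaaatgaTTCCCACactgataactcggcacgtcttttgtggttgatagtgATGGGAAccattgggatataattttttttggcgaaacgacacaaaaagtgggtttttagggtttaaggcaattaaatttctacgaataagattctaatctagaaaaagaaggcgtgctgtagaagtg
The promoter of hlh-26 (chrII:5533693-5533992, minus strand, 250 bp before to 50 bp after the transcript start) is shown because it drives the tagged gene.
hlh-26 promoter: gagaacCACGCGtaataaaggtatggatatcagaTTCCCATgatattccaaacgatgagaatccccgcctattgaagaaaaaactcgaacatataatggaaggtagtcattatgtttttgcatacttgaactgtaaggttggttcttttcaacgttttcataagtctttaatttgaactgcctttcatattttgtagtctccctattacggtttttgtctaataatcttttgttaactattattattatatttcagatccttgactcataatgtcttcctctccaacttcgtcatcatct
The promoters of hlh-25 (chrII:5534989-5535288, plus strand) and hlh-27 (chrII:5540164-5540463, minus strand) are shown because 92.8% of their aligned bases were identical.
hlh-25 promoter: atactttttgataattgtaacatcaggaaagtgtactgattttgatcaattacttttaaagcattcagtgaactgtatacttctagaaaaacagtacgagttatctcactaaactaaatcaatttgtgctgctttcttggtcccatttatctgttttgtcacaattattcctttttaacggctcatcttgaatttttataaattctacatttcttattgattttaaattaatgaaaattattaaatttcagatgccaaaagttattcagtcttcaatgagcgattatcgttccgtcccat
hlh-27 promoter: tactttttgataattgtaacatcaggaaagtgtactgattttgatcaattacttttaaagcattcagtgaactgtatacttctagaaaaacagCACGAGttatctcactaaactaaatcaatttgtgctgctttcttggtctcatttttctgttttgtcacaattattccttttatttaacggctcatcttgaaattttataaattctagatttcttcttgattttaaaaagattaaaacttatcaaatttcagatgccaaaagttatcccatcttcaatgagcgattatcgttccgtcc
The promoters of hlh-28 (chrX:17550805-17551104, plus strand) and hlh-29 (chrX:17548590-17548889, minus strand) are shown because they were nearly the same sequence, at 99.3% identity, and held no match.
hlh-28 promoter: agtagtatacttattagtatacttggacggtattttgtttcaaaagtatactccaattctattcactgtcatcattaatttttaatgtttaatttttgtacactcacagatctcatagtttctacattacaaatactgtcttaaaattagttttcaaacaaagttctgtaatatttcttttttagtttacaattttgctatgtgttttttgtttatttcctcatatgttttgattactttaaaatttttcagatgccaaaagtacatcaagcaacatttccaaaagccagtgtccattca
hlh-29 promoter: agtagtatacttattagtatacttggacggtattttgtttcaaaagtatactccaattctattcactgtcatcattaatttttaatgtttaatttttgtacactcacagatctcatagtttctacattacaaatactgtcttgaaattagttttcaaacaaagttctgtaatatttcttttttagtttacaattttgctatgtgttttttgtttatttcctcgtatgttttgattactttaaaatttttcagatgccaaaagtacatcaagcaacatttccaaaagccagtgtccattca
The last is the summit of the one peak between hlh-29 and hlh-28 (chrX:17549653-17549753, plus strand) of this divergent pair.
summit between hlh-29 and hlh-28: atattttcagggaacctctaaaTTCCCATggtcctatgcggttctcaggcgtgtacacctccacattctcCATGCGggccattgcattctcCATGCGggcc

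No REF-1 family gene had a thresholded peak nearby. A thresholded peak within 5000 bp was found at 0 of 6 members in the list of both replicates, against 1.09% of all protein-coding genes. The count was 0 of 6 in the other series list too (0.876% of all genes), and in the lists of replicate 1 (0.13%) and replicate 2 (0.18%). At shares this small, 0 of 6 says little about the family. No thresholded peak came within 10000 bp of a member in the list of both replicates.

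Ranked peaks were present near every member in 3 of the 4 ranked lists, as they were near most genes. In the ranked list of both replicates all 6 members had a peak within 5000 bp, against 90.8% of all protein-coding genes. It was 6 of 6 in the other series list (91.2% of all genes) and 6 of 6 in replicate 1 (80.1%). Replicate 2 had 4 of 6 (85.9% of all genes), with no peak near hlh-25 or hlh-26. A member had from 2 peaks (hlh-25 and hlh-26) to 9 (hlh-28), against a median of 5 over all genes. Near the 6 genes lay 24 distinct peaks in the list of both replicates, which merge into 14 regions, since neighbouring peaks overlap.

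In the list of both replicates the 24 peaks stood above the middle by signal and at the middle by score. Their signal ran from 13.3 to 69.6 with a median of 33.9, against a median of 25.96 over all 35301 peaks. The median rank by signal was at percentile 72.2, where 100 is the strongest peak and the list as a whole has 50 by construction. By score the median percentile was 50.01, and the median score was 57.5, against 57.0 over all peaks. Scores ran from 27 to 393, an IDR between 86.0% and 11.3%, and 8 of the 24 had the lowest score in the list, as did 45.3% of all its peaks. None reached a score of 540, and 3.59% of all genes had such a peak within 5000 bp. In the other series list none did either (3.01% of all genes), nor in replicate 2 (0.911%). The median score differed between lists: near members it was 79 in the other series list (22 peaks), against 53 over all its peaks, 11 in replicate 1, against 24, and 34 in replicate 2, against 25. In the replicates' own lists the median percentile by signal was 53.0 in replicate 1 (14 peaks) and 49.2 in replicate 2 (15 peaks).

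The strongest peak of each member placed hlh-27 and ref-1 highest. The strongest signal within 5000 bp was 69.6 at hlh-27, 59.2 at ref-1 and 50.9 at hlh-28. It was 41.95 for the peak that hlh-25 and hlh-26 share and 40.7 at hlh-29. Of all 19973 protein-coding genes, 95.8% had a lower value than hlh-27, 89.7% than ref-1 and 77.6% than hlh-28. The other members lay between 52.2% and 56.3%, and genes without a peak were counted as lower. Among the 18130 genes with a peak at that distance, hlh-27 ranked 838, ref-1 2059 and hlh-28 4466. There hlh-25 and hlh-26 ranked 8735 and hlh-29 ranked 9555. The order differs from that of distance: the nearest summit was 115 bp from the transcript start of ref-1, 1064 bp for hlh-29, 1352 bp for hlh-28, 2090 bp for hlh-27, 2884 bp for hlh-25 and 3463 bp for hlh-26, against a median of 1219 bp over all genes. In the other 3 ranked lists the nearest summit was farther from hlh-25 than from hlh-26, at 4960 bp against 3463 bp in the other series list. The order of signals also depended on the list: in replicate 1 hlh-27 was highest at 59.5, followed by ref-1 at 34.2, while in replicate 2 hlh-28 had 34.1, ref-1 33.4 and hlh-27 17.4. ref-1 held the second place in all 4 ranked lists, but not by the same peak. In replicate 2 its strongest peak lay in a coding exon of plc-3, 6127 bp after the ref-1 start, and its promoter peak had 27.2. The hlh-28 peak of 34.1 lay in a coding exon of F31A3.5. In the other 3 lists the strongest peak of ref-1 was the one at its promoter.

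**Figure D1:**
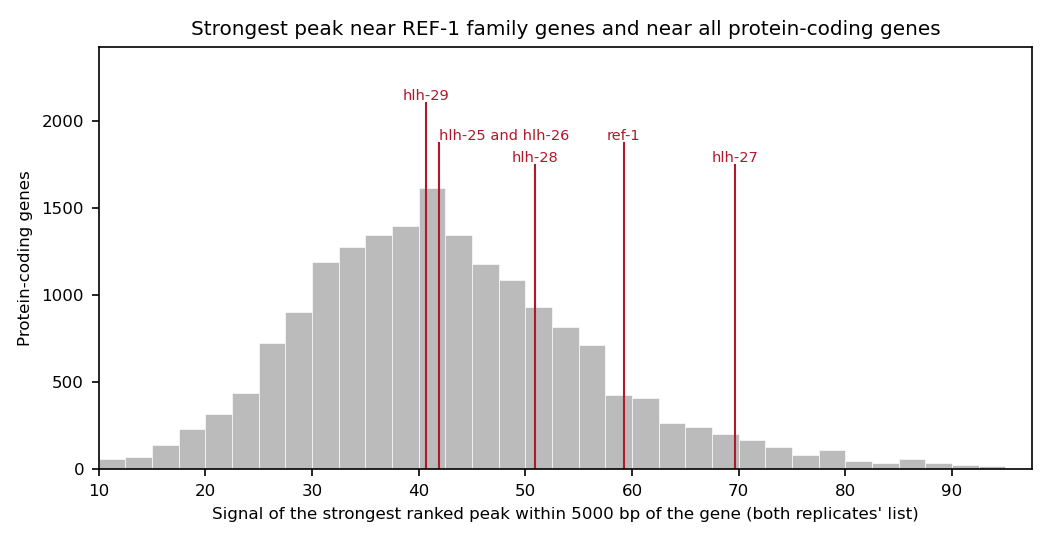
Signal of the strongest ranked peak within 5000 bp of a gene in the list of both replicates (horizontal axis, authors' signal units) for the REF-1 family (red lines) and for all protein-coding genes (grey bars, number of genes per bin of signal; 99 genes beyond the axis are not drawn). hlh-27 at 69.6 and ref-1 at 59.2 lie in the right flank, while hlh-29, hlh-25 and hlh-26 lie near the median of 41.4.

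ref-1 was the one family member with a peak at its promoter. Counting summits from 500 bp before to 100 bp after a transcript start, 1 of 6 members had one in the list of both replicates, against 19.3% of all protein-coding genes. It was ref-1 also in the other series list (19.4% of all genes), in replicate 1 (11.7%) and in replicate 2 (14.2%). The peak (chrII:10217888-10218411) had its summit 321 bp upstream of the start and a signal of 59.2, which ranked 818 of 35301. Its score was 393, an IDR of 11.3%, and ranked 631. Among the 3848 genes with a summit in this window, ref-1 ranked 146 by signal.

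Both replicates had a peak at the ref-1 promoter, with the strongest summit at a different position in each. In replicate 1 the strongest peak there had a signal of 34.2, rank 1116 of 19393, with its summit 375 bp upstream. In replicate 2 the signal was 27.2, rank 1961 of 24293, with the summit 180 bp upstream. Near that position replicate 1 had a weaker peak, with its summit 176 bp upstream, a signal of 15.3 and rank 14145. The promoter of ref-1 ranked 185 of 2342 genes with a promoter summit in replicate 1 and 294 of 2844 in replicate 2. The strongest promoter peak scored 23 in replicate 1's own list, an IDR of 87.8%, against a median of 24 over that list. In replicate 2 it scored 49, an IDR of 76.1%, against a median of 25. The other series list gave the ref-1 promoter peak 301. The peak does not belong to ref-1 alone: it lies over T01E8.10, an annotated non-coding RNA gene on the opposite strand (chrII:10217484-10218430), and a second, overlapping peak of signal 33.45 (rank 10204) had its summit 115 bp upstream of ref-1. No base of the peak, of the ref-1 gene or of the 5000 bp on either side of it lies in a 50-base word that occurs again in the genome.

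The ref-1 peak covers a cluster of LAG-1 heptamers, printed above. GTGGGAA began 396 and 340 bp upstream of the start and ATGGGAA 364 and 297 bp upstream, so that the summit at 321 bp upstream, that of both series lists, fell between the third and the last of them. Replicate 1's strongest summit, 375 bp upstream, also lay among them, but replicate 2's, 180 bp upstream, and the second summit of the list of both replicates, 115 bp upstream, lay more than 100 bp from the nearest. Only 8 of the 19973 promoters (0.0401%) held 4 or more of these heptamers from 500 bp upstream to 100 bp downstream. Within 50 bp of the summit at 321 bp lay 3, as many as at 6 of 35284 nuclear ranked summits (0.017%). These counts of heptamers per promoter and per summit were chosen after the matches had been seen. Of the bHLH hexamers, CACNAG alone was found in this window, 431 bp upstream and 24 bp downstream of the start, and 45.2% of all promoters of that length hold it.

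**Figure D2:**
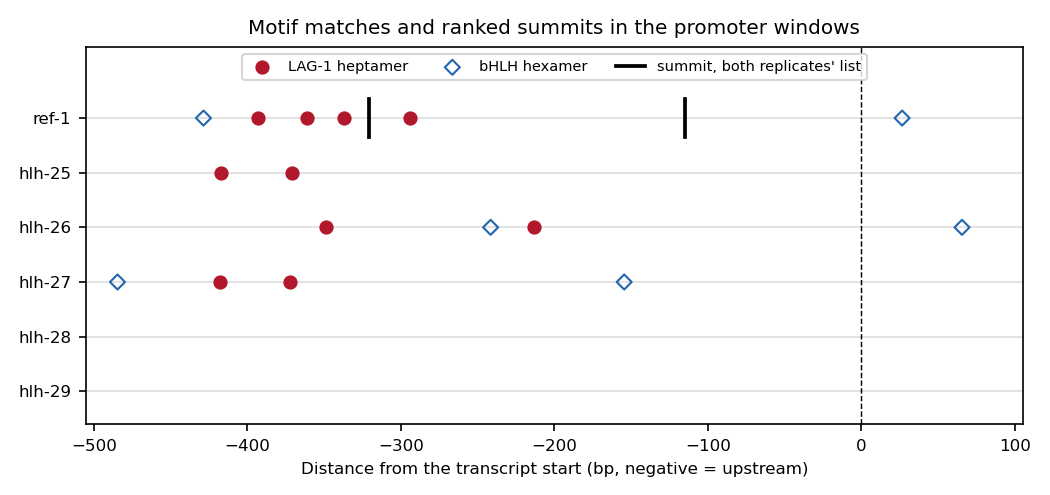
Matches to the LAG-1 heptamers (red circles) and the bHLH hexamers (blue diamonds) and ranked summits of the list of both replicates (black bars) from 500 bp upstream to 100 bp downstream of each transcript start (horizontal axis, bp), 1 row for each REF-1 family gene. ref-1 alone has summits, 321 and 115 bp upstream, and 4 heptamers. hlh-25, hlh-26 and hlh-27 have 2 heptamers each without a summit, and hlh-28 and hlh-29 have no match.

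Whether the other peaks around ref-1 had lower scores depended on the list. The nearest protein-coding genes are T01E8.1, 9209 bp to the left of ref-1, and plc-3, 2854 bp to its right. A peak with its summit 6126 bp after the ref-1 start (chrII:10224335-10224858) had a signal of 58.1 (rank 904) and a score of 53 in the list of both replicates, below the 393 of the ref-1 promoter peak. In the other series list its score was 324, above the promoter peak's 301, and in replicate 2 it was 181, above 49. It lies in a coding exon of plc-3, the downstream neighbour, which encodes a phospholipase C. This region ranked 615 in replicate 2 with a signal of 33.4 and 17904 in replicate 1 with a signal of 12.1. Within ref-1 itself a peak of signal 17.9 (rank 26756) lay in a coding exon, and neither replicate's own list had it. The remaining 2 upstream summits, 3893 and 4206 bp before the start, had signals of 34.4 and 30.8 and were in neither replicate's own list, and a summit 1268 bp upstream was in replicate 2 alone (signal 11.6).

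The genes hlh-26, hlh-25 and hlh-27 lie in that order on chromosome II, and no peak touched any of them. hlh-26 (chrII:5532839-5533742, minus strand) and hlh-25 (chrII:5535239-5536405, plus strand) are divergent, with 1496 bp between them. No ranked list had a peak in that shared upstream stretch. The 2 peaks assigned to both genes lie beyond them. One (chrII:5530017-5530540, signal 34.75, rank 9120, score 61) had its summit 3463 bp after the hlh-26 start, nearest to the start of C17C3.9, and was in replicate 1 alone (signal 24.4, rank 5095 of 19393). The other (chrII:5537861-5538384, signal 41.95, rank 4708, score 128) had its summit in an intron of C17C3.11, 299 bp after that gene's start, and was in neither replicate's own list nor in the other series list.

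The strongest peak near hlh-27 lay far from its promoter, at a gene for a spliced-leader RNA. Its summit was 3506 bp upstream of hlh-27 (chrII:5543457-5543980), with a signal of 69.6 and rank 303 of 35301. The interval holds sls-2.2 (chrII:5543598-5543707), which encodes an SL2 RNA used in trans-splicing, and the nearest protein-coding start, 1145 bp away, was that of ins-13, an insulin-like peptide gene. sls-2.2 was picked out after its value was seen. Replicate 1 placed this peak at rank 29 of 19393 with a signal of 59.5 and a score of 653, an IDR of 2.67%, the one peak of that list near a member with a score of 540 or more (0.546% of all genes had one there). In replicate 2 the peak over sls-2.2 had a signal of 15.7 and rank 12342 of 24293, and the strongest peak of the region had 17.4 and rank 9768. In the list of both replicates its score was 104, an IDR of 56.15%, and in the other series list 329.

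Of the rest of the hlh-27 surroundings, the C17C3.11 intron peak was nearest, 2090 bp after the hlh-27 start. Between the hlh-27 gene (chrII:5539075-5540213, minus strand) and the peak at sls-2.2 lay C17C3.24 and no ranked peak. Further peaks of signal 13.3 and 13.4 adjoined the one at sls-2.2, and a peak of signal 30.2 lay in the 3′ UTR of acdh-2, 5236 bp upstream of hlh-27.

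**Figure D3:**
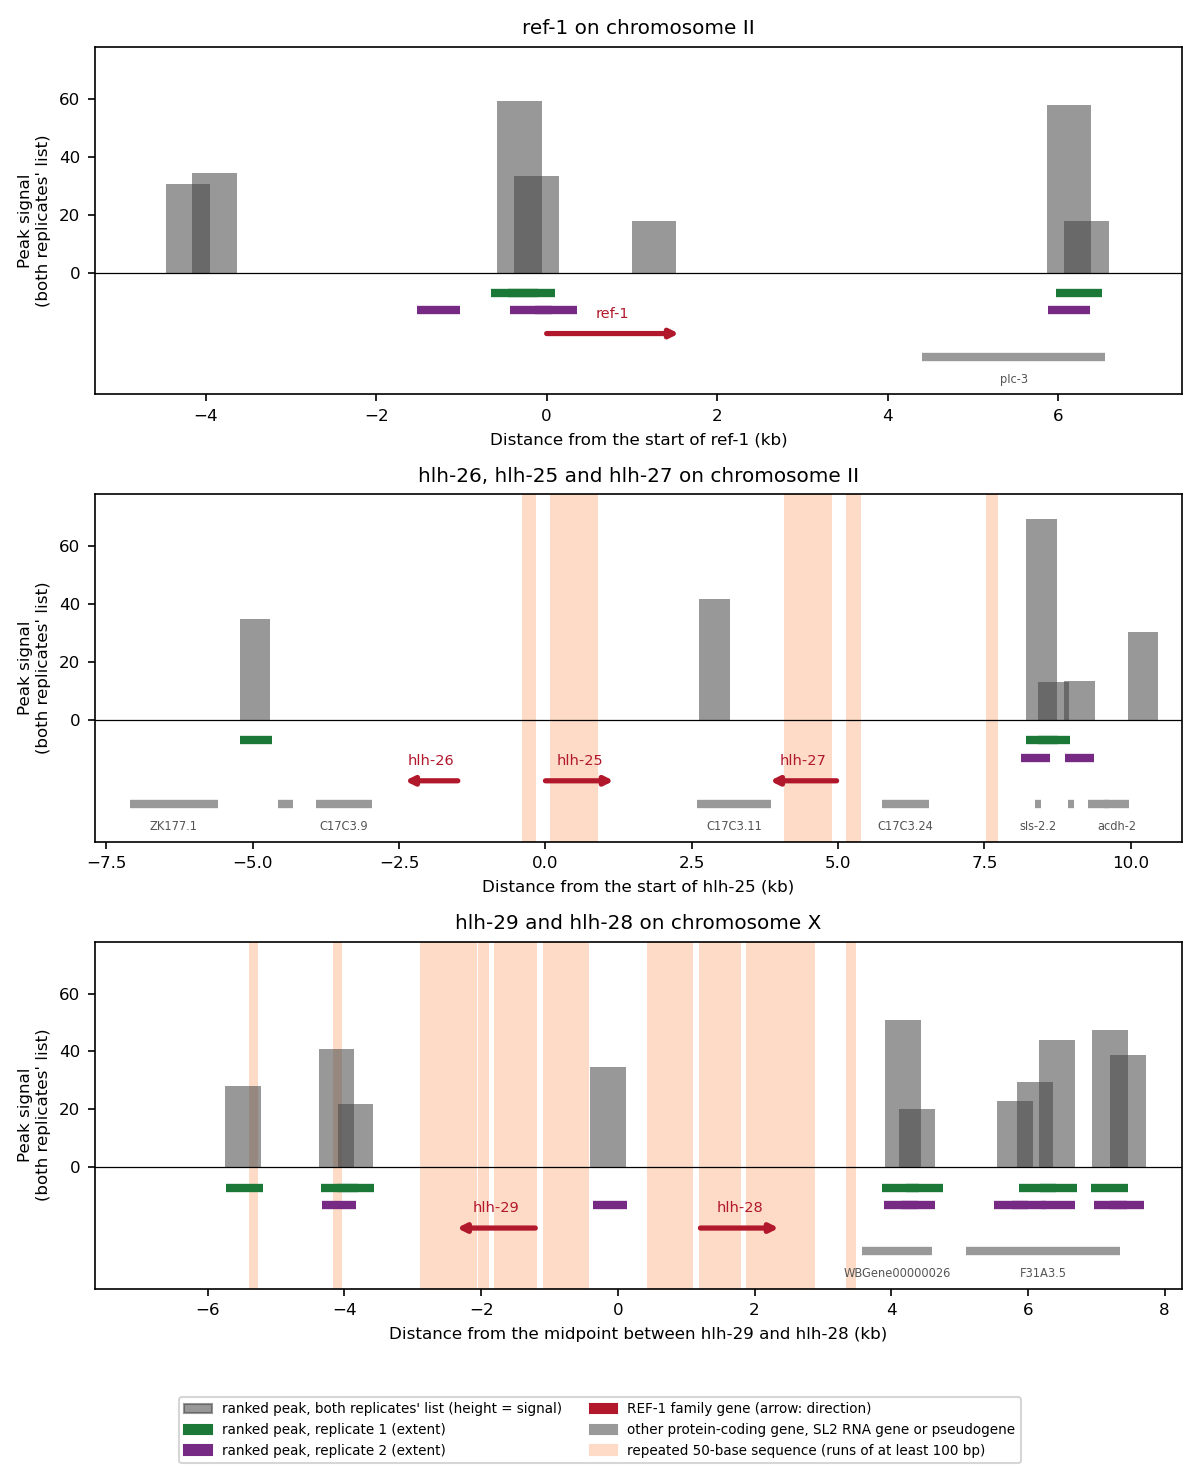
Ranked peaks within 5000 bp of the REF-1 family genes at their 3 loci (horizontal axis, distance in kb; vertical axis, authors' signal in the list of both replicates). Grey bars are peaks of that list, green and purple lines the extents of peaks in replicate 1 and replicate 2, red arrows family genes, grey lines other genes, and shaded stretches sequence that recurs in the genome. Peaks overlap ref-1 and no other member, and the shaded stretches cover hlh-28, hlh-29 and most of hlh-25 and hlh-27.

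hlh-29 (chrX:17547492-17548639, minus strand) and hlh-28 (chrX:17551055-17552202, plus strand) are divergent, 2415 bp apart, and had 1 ranked peak between them. That peak (chrX:17549441-17549964) had its summit 1064 bp upstream of hlh-29 and 1352 bp upstream of hlh-28, a signal of 34.8 (rank 9075) and the lowest score of the list, 27. It was in replicate 2 (signal 22.35, rank 4668 of 24293) and not in replicate 1's own list. Its summit window, printed above, holds ATGGGAA and CATGCG, which are found at 2.08% and 2.16% of all nuclear ranked summits.

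The stronger peaks near this pair lay beyond the genes, whose nearest other protein-coding neighbours are F31A3.3, 13427 bp from hlh-29, and F31A3.5, 2742 bp from hlh-28. The strongest (chrX:17553755-17554278) had a signal of 50.9 (rank 1920) and a score of 156, with its summit 2962 bp after the hlh-28 start in the pseudogene WBGene00000026, and both replicates had it, with signals of 21.3 in replicate 1 and 24.1 in replicate 2. Along F31A3.5, the gene to the right, 5 peaks had signals from 22.8 to 47.5. The highest of these ranked 540 of 24293 in replicate 2 with a signal of 34.1 and 15223 of 19393 in replicate 1 with a signal of 14.3. On the other side, the strongest peak after hlh-29 had a signal of 40.7 and its summit 2907 bp after the start.

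The replicates shared most regions near the family but not their order. Peaks of the replicates' own ranked lists within 5000 bp of a member formed 11 regions, of which 7 were in both, 2 in replicate 1 alone and 2 in replicate 2 alone. Of the peaks near members, 12 of 14 in replicate 1 overlapped a peak of replicate 2 by at least 1 bp, against 46.6% of all its ranked peaks. In replicate 2 it was 13 of 15, against 38.2%. These are few peaks in few regions, and several overlap each other, so the shares are given without a test. The ref-1 promoter region stood at percentile 94.25 in replicate 1 and 91.9 in replicate 2, and it was the one region above percentile 90 in both. Those values come from peaks with summits 375 and 180 bp upstream of ref-1. The replicate 1 peak nearest in position to that of replicate 2, 176 bp upstream, stood at percentile 27.1. The region at sls-2.2 near hlh-27 was at percentile 99.9 in replicate 1 and 59.8 in replicate 2. In replicate 2 that value belongs to a neighbouring peak that does not cover sls-2.2, and the peak over sls-2.2 was at 49.2. The plc-3 region near ref-1 was at 7.68 in replicate 1 and 97.47 in replicate 2. The last F31A3.5 region near hlh-28 was at 21.5 in replicate 1 and 97.8 in replicate 2.

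**Figure D4:**
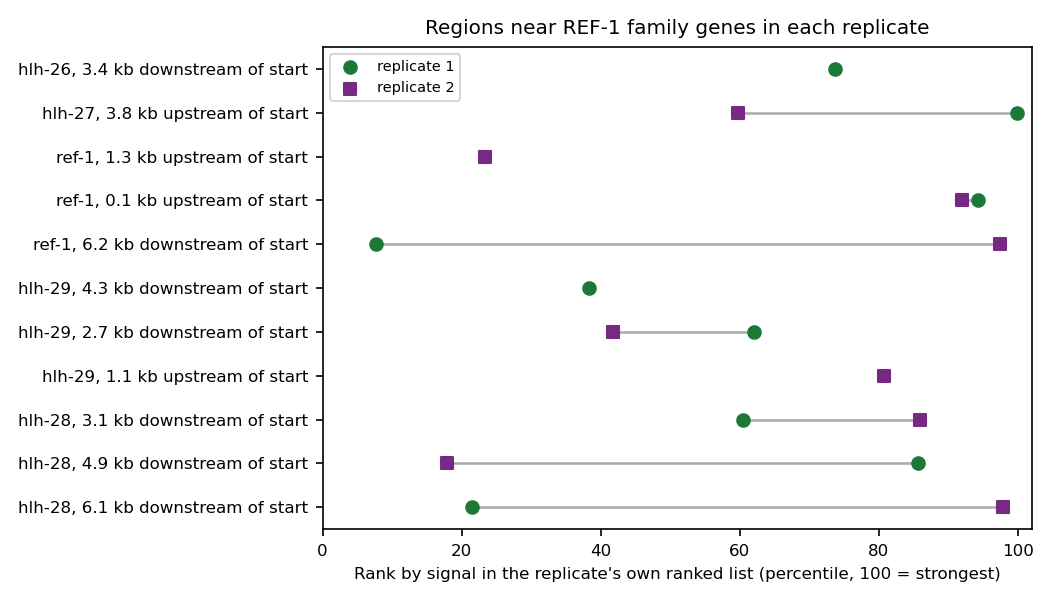
Percentile by signal within each replicate's own ranked list (horizontal axis, 100 = strongest) of the strongest peak in the 11 regions near REF-1 family genes, in replicate 1 (green circles) and replicate 2 (purple squares), named by the nearest member and the distance of the region's middle from its transcript start. Grey lines join the 7 regions found in both. The ref-1 region 0.1 kb upstream has both points above 90, while the plc-3 region 6.2 kb downstream of ref-1 has points at 7.68 and 97.47.

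Of the family genes, 4 consist largely of sequence that recurs in the genome. A base was counted as repeated where it lies in a 50-base word found more than once in the nuclear genome, on either strand. This held for 99.1% of the hlh-28 gene and of the hlh-29 gene, 76.6% of hlh-27 and 74.7% of hlh-25, against 9.66% of the nuclear genome, and for no base of ref-1 or hlh-26. At most 1.60% of all genes were repeated to the extent of hlh-28 and hlh-29. hlh-28 and hlh-29 sit in a pair of inverted arms of 2464 bp each (chrX:17546958-17549421 and chrX:17550273-17552736) that differ at 9 positions. The peak between the genes lies in the 851 bp between the arms, where no base is repeated.

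The proteins show the same pairing. HLH-28 and HLH-29, of 239 residues each, were identical at 237 of them (99.2%). HLH-25 and HLH-27, of 268 residues, were identical at 264 (98.5%). HLH-26, of 210 residues, shared at most 31.4% of aligned residues with another member, and REF-1, of 367 residues, at most 22.2%.

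Few ranked peaks lay in such sequence anywhere. A peak overlapped the gene body at 1 of 6 members, ref-1, against 53.2% of all protein-coding genes. It was ref-1 alone in the other series list too (53.0% of all genes), in replicate 1 (39.1%) and in replicate 2 (44.2%). The members are 904 to 1552 bp long, and these shares are over genes of every length, without matching for length. Over genes repeated to at least 50% the share was 15.75%, of 984 genes, and over those repeated to at least 90% it was 3.20%, of 437. Of all nuclear ranked summits 3.71% fell in repeated sequence. Of the 24 peaks near members, 16 held no repeated base, and the most repeated one held 50.95%. hlh-26, whose gene is not repeated at all, had no peak over it either. The part of repeated sequence in the lack of peaks over the other 4 genes was not tested.

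**Figure D5:**
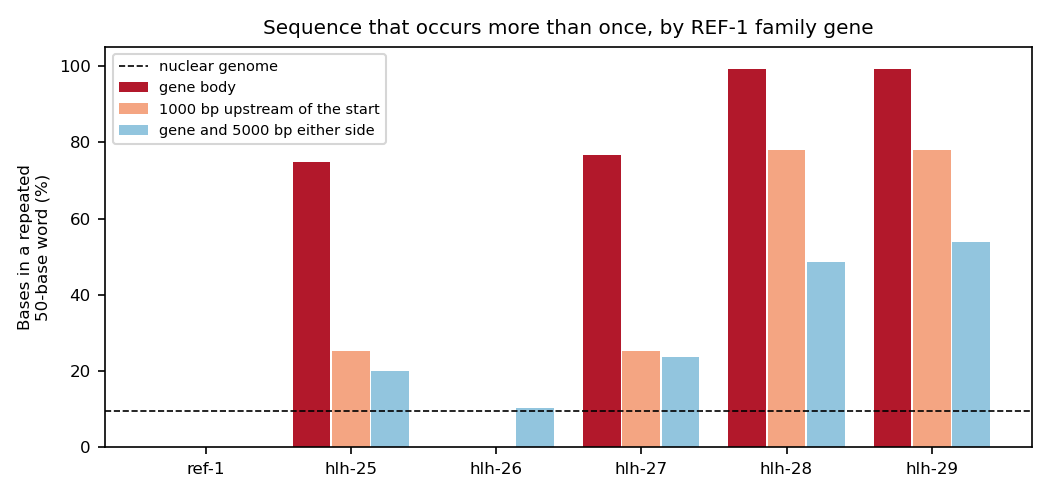
Share of bases (vertical axis, percent) in a 50-base word that occurs more than once in the nuclear genome, for the gene body (red), the 1000 bp upstream of the transcript start (orange) and the gene with 5000 bp on either side (blue) of each REF-1 family gene; the dashed line is the nuclear genome at 9.66%. hlh-28 and hlh-29 stand at 99.1% in the gene body and 77.9% upstream, hlh-25 at 74.7% and hlh-27 at 76.6% in the gene body and both at 25.2% upstream, and ref-1 and hlh-26 at 0 in both.

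LAG-1 heptamers were found in the longer promoter window of 4 members and bHLH hexamers in that of 3. In the promoters of 250 bp upstream to 50 bp downstream, 3 of 6 members held any of the 8 motifs, against 50.7% of all promoters. They were ref-1 and hlh-27 with CACNAG and hlh-26 with CACGCG and ATGGGAA. From 500 bp upstream to 100 bp downstream, 4 of 6 members held any of the 8, against 75.1% of all promoters of that length. Of the hexamers, CACNAG was found at ref-1 and hlh-27, against 45.2% of all promoters, and CATGCG at hlh-27, against 9.09%. hlh-26 held CATGTG (18.3%) and CACGCG (8.44%). In this window ATGGGAA was found at 4 of 6 members, against 11.1%, and GTGGGAA at ref-1 and hlh-26, against 7.57%. The 4 are not independent, since hlh-25 and hlh-27 carry their 2 ATGGGAA heptamers within the same related upstream sequence, starting 420 and 374 bp before hlh-25 and 421 and 375 bp before hlh-27. hlh-26 had GTGGGAA 352 bp and ATGGGAA 216 bp upstream. Of all promoters 1.93% held 2 or more heptamers. At hlh-25, hlh-26 and hlh-27 no summit lay beside them, so that of the 4 members with LAG-1 heptamers ref-1 alone had a ranked peak there. Of the 24 summits near members, 5 had a heptamer within 50 bp, against 3.36% of all nuclear ranked summits, and 4 of the 5 lay near ref-1. Among these 5 peaks, the ref-1 promoter peak alone overlapped peaks in both replicates' own lists. Replicate 1's strongest summit there lay among the heptamers, but replicate 2's, 180 bp upstream, did not. The other heptamer peaks near ref-1 overlapped none in either list, and the peak between hlh-29 and hlh-28 was in replicate 2 alone.

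Related gene lists had strongest peaks of much the same signal. The strongest peak within 5000 bp had a median signal of 46.4 over the 6 members, against 43.4 over the bHLH genes outside the family, 43.1 over Notch pathway genes and 41.4 over all protein-coding genes. A promoter summit was found at 1 of 6 members, 11 of the 34 other bHLH genes and 1 of the 17 Notch pathway genes, against 19.3% of all protein-coding genes. Among the other bHLH genes the highest signals were 85.0 at lin-32, a proneural factor, 59.8 at hif-1, the hypoxia-inducible factor, and 59.3 at hlh-11, the last in the promoter. Among Notch pathway genes they were 65.5 near adm-4 and 55.9 at sup-17, both genes for ADAM proteases that cleave Notch receptors. At lag-2, a Notch ligand gene, the signal was 59.3. The peak near adm-4 was intergenic, and that at sup-17 lay in a coding exon of sup-17. For both, the nearest protein-coding start was that of another gene.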

How the data were processed

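The authors deposited 8 peak lists on the ce11 build, per the description file deposited with each sample. The series' lists derive from the alignments of both replicates and each sample's lists from its own. The peak caller and the IDR software, like the control, were not given in the sources used here. The 8 columns that give the signal of each compared list were not used. The deposited score is the global −log10 IDR rescaled to at most 1000, and the deposited signal is the authors' enrichment value on an unstated scale, compared within a list only. The summit is the deposited point position, which lies at the peak's centre in nearly every case. The intervals of the compared lists showed what was compared in the main ranked list: those of the first list equalled a replicate 1 peak in 19059 of 35301 cases, and those of the second a replicate 2 peak in 19975. Peak lists hold no reads, so depth is unknown and no interval is given.

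The annotation was Ensembl release 115, with the RefSeq sequence of the same assembly, WBcel235. Distances run from a peak's edge to the gene and from its summit to the transcript start. Named were the 6 members, their neighbours, genes whose start was nearer to a summit than a member's, and the 3 strongest of each related list. Genes overlapped by a named peak were added after their values were seen. The members and lists were chosen with earlier results of these data known. Shares over all genes or peaks stand beside each count, with no test, since there is 1 group. Proteins were translated from the annotated coding sequence and aligned. The code was tested on simulated data. Alternatives covered distance, list, replicate, score, overlap, promoter window and ranking measure. Python 3.11.15, numpy 2.4.6, pandas 2.3.3 and Biopython 1.88 were used.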

Additional observations from a re-analysis of the deposited data

How the results depend on the processing

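The absence of thresholded peaks near members and the single promoter summit at ref-1 were the same under all 5 alternatives run for each. For thresholded peaks, the alternative of a score of 540 or more could not change the count, since all of them score 832 or more. Ranked peaks near members depended most on how near a peak had to be and on how strict the score was. Taking the gene body alone left 1 member and 2 peaks, and a score of 540 or more left 0 of both. By construction these alternatives can only lower the counts, but how far was not fixed in advance. Within 2000 bp lay 9 peaks, and 3 regions were in both replicates, against 24 and 7 within 5000 bp. Merging overlapping peaks gave 14. Either replicate alone gave 4 to 6 members, 14 to 15 peaks and a median percentile by signal of 49.2 to 53.0, against 72.2 in the list of both. That median was 67.5 within 10000 bp and 50.01 when peaks were ranked by score. A promoter of 1000 bp upstream held a motif at 5 members, where 88.3% of all promoters did. In the shorter promoter it was 3 members, where 50.7% of all promoters did. The cause of these shifts in percentile was not tested. No paired analysis was possible because there is only 1 group. The number of replicates, 2, and the unknown depth limit every statement on a peak found in 1 replicate alone.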
